A study of Mus musculus with 24 samples.

Results

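Neuropeptides are short signalling peptides that neurons cut from larger precursor proteins, pack into dense-core vesicles and release mostly during sustained or high-frequency firing. Granins are acidic proteins of the same vesicles, which take part in forming them and are themselves cut into active peptides. In the hippocampus several of these precursors are made by inhibitory interneurons, others by dentate granule cells and their mossy fibers, and their transcripts are known to change after seizures. The 10 genes described here, out of 55385 gene identifiers measured, were chosen by name as members of this group. They were the neuropeptide precursors *Npy*, *Sst*, *Penk*, *Pdyn*, *Cck*, *Tac2*, *Crh* and *Gal*, together with *Scg2* and *Vgf*. *Scg2* is a granin, and *Vgf* belongs to that family in the wider sense.

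RNA was measured in the whole hippocampus of 24 adult mice of both sexes, 4 in each of 6 groups. All mice carried Tsc1f/f alleles and received tamoxifen. Control mice (*Tsc1-Cre-*) lacked the Camk2a-CreERT2 transgene and were taken on day 8 after the first tamoxifen injection, whereas mice with the transgene (*Tsc1-Cre+*), in which *Tsc1* is deleted, were taken on day 4, 6, 8 or 13 without a drug. Mice of the *Tsc1-Cre+*-Rap 4 group received 10 mg/kg rapamycin daily from day 4 and were taken on day 13. Camk2a drives Cre in excitatory forebrain neurons, so other cells of the tissue keep *Tsc1*. TSC1 restrains the mTOR kinase and rapamycin inhibits mTOR. The series followed transcripts up to and beyond the first seizures, which begin around day 8. Only 1 control time point was taken, so day after tamoxifen and genotype are not separated at the other days. No labels link a mouse to its seizures.

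The libraries held between 28208561 and 126435936 counted reads, and the median library held 55582027. *Xist*, a transcript of female cells, was at 3.12 CPM in control A and at 636.5 to 1070 CPM in controls B to D. It was at 946.0 CPM in day 4 mouse D and at 902.3 CPM in day 6 mouse A. The other mice of days 4 and 6 had at most 3.09 CPM. Sex and group therefore largely went together in the comparisons of these days with controls. *Tsc1*, the targeted gene, lay between 102.6 and 109.5 CPM (counts scaled to 1000000 per mouse) in the 4 controls and between 57.5 and 81.7 CPM in the 20 *Tsc1-Cre+* mice, with no overlap. In 4 mice transcripts of the neighboring medial habenula were present, with *Chrnb4* and *Pou4f1* both over 1 CPM, namely day 4 mouse A, day 8 mouse C, day 13 mouse D and Rap 4 mouse C. Day 4 mouse D had 5.62 CPM of the striatal *Adora2a*, against 0.477 to 1.38 CPM in the other mice. The 8 choroid plexus markers summed to between 40.4 and 1702 CPM, with low and high mice in every group and none of them called in any comparison, while 7 hypothalamus markers summed to at most 3.88 CPM. Thalamus markers, 7 in number, summed to 237.3 to 489.2 CPM in controls, to 471.5 CPM in day 8 mouse C against 181.8 to 231.7 CPM in the other day 8 mice, and to 119.0 to 204.9 CPM on day 13, without overlap with the controls. Of this list, *Ntng1* (log2 fold change -1.74) and *Prkcd* (-1.72) were called lower on day 13, *Ntng1* also on day 8 and *Prkcd* also on day 6. The part of these markers in the results below was not tested. Markers of CA pyramidal cells, 8 in number, summed to 535.1 to 743.4 CPM over all mice.

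A motif bound by CREB-type factors, the cAMP response element (CRE), is shown first, since activity-dependent transcription of peptide precursors is often traced to it. RefSeq promoters of GRCm38.p6, each running from 250 bases before to 50 bases after the annotated start, were at hand for 7 of the 10 genes; *Penk*, *Vgf* and *Crh* had no entry. The full palindrome TGACGTCA stood in 2 of these 7 genes, *Scg2* and *Sst*, and in 1.79% of all 32851 promoters. Its first base lay 68 bases before the start of *Scg2* and 48 bases before the start of *Sst*. The half-site TGACG, which the palindrome contains, stood on either strand in 4 genes, *Scg2*, *Sst*, *Cck* and *Gal*, and in 20.8% of all promoters. The AP-1 motif TGAGTCA stood in none of the 7 and in 5.20% of all. The stretches below run 5′ to 3′ on the gene's own strand, with the palindrome, or for *Cck* the half-site read from the other strand, in capitals. They are given because *Scg2* rose during the time course while *Sst* and *Cck* were not called. *Gal*, whose half-site is not printed, was called higher on day 13. The part of these motifs in the levels was not tested. The *Scg2* stretch is chr1:79440076-79440105, the *Sst* stretch chr16:23890874-23890903 and the *Cck* stretch chr9:121495724-121495753, all on the minus strand. The *Scg2* and *Sst* stretches lie inside the gene as GENCODE M21 draws it, whose start is further upstream.

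Scg2: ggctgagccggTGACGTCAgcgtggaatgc

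Sst: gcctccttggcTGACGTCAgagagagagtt

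Cck: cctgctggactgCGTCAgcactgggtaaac

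In the controls, the order of levels per kilobase of exon was *Cck*, *Scg2*, *Sst*, *Vgf*, *Npy*, *Penk*, *Pdyn*, *Tac2*, *Gal* and *Crh*. *Cck* stood at 81.2 ± 6.78 CPM per kilobase (SD, n = 4), *Scg2* at 56.9 ± 1.15 and *Sst* at 36.7 ± 3.53. *Npy* stood at 19.5 ± 1.85 and *Penk* at 8.65 ± 1.36, whereas *Gal*, at 0.347 ± 0.171, and *Crh*, at 0.310 ± 0.135, were close to the limit of detection. The control mice of neighbors in this order did not overlap, except for *Tac2* with *Gal* and *Gal* with *Crh*. On day 13 *Scg2* led, at 215 ± 89.8 CPM per kilobase, and *Npy* stood second at 103 ± 68.4, followed by *Cck* at 88.4 ± 14.4. *Sst* was sixth on that day, at 31.3 ± 2.25 CPM per kilobase. Every neighboring pair of the day 13 order overlapped, with the exception of *Sst* and *Pdyn*.

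Across the 6 groups, 6 of the 10 genes differed (edgeR F test, adjusted p under 0.05), where 41.9% of the 27110 genes tested did so. These were *Scg2* (adjusted p = 3.29e-07), *Vgf* (1.01e-05), *Npy* (4e-05), *Gal* (8.85e-05), *Penk* (0.000256) and *Crh* (0.025). Adjusted p-values of the others, in the same edgeR test, were 0.0808 for *Cck*, 0.217 for *Pdyn*, 0.32 for *Sst* and 0.708 for *Tac2*. All 10 genes passed the filter on low counts in every comparison. To be called between 2 groups, a gene needed an absolute log2 fold change over 0.5 beside an adjusted p under 0.05. In bulk tissue, fewer cells of a type and less RNA per cell cannot be told apart.

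**Figure D1:**
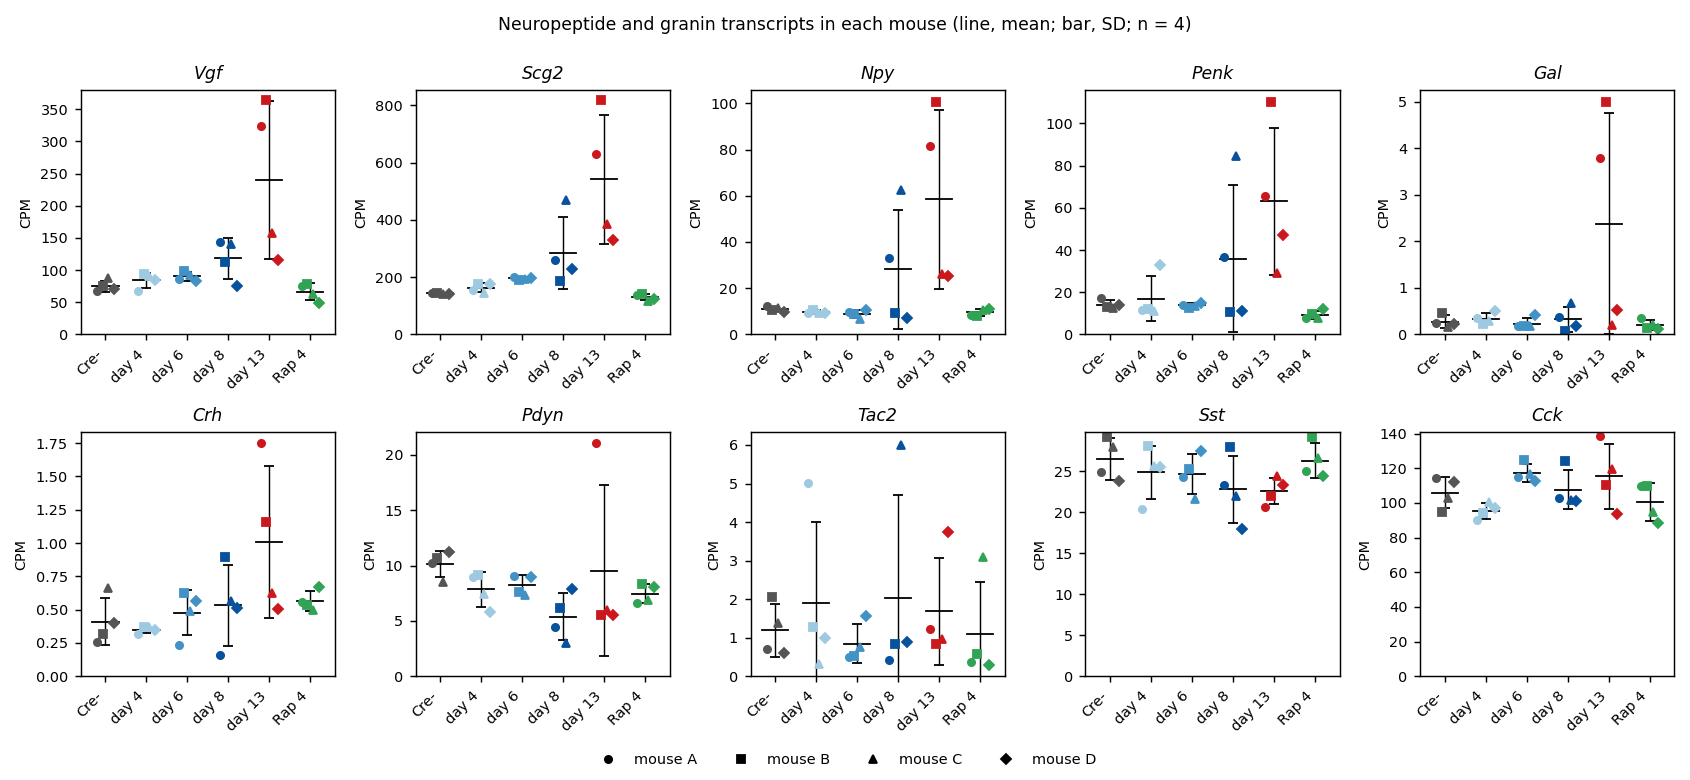
CPM of the 10 genes (vertical axes from 0) by group, 1 symbol per mouse, with the mean as a line and the SD as a bar (n = 4; bars that would pass below 0 are cut at the axis). On day 13 all 4 mice exceed all 4 controls for Vgf, Scg2, Npy and Penk, Gal is high in mice A and B, and Tac2 is high in single mice of several groups.

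In the edgeR fit of day 6, *Scg2* and *Vgf* were the ones of the 10 genes with an adjusted p under 0.05. With all 24 mice in 1 fit neither was (0.406 and 0.736), and DESeq2 gave *Pdyn* (0.0239) and *Npy* (0.0423), both lower, beside them. With the *Xist* level as a covariate, the edgeR adjusted p was 0.000161 for *Scg2* and 0.0923 for *Vgf*. *Scg2* encodes secretogranin II, the precursor of secretoneurin. Its level was 145.3, 145.6, 142.3 and 139.5 CPM in controls A to D, and 155.6, 177.2, 143.4 and 177.3 CPM on day 4. Day 6 mice had 202.3, 191.9, 193.0 and 197.6 CPM, all above every control and within a narrow range. By day 8 the 4 mice spread out, at 259.2, 185.9, 468.9 and 228.1 CPM, and day 13 mice reached 630.0, 818.5, 387.3 and 330.3 CPM. Mice given rapamycin stood at 136.3, 140.4, 117.5 and 124.8 CPM, around or below the controls.

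The log2 fold change of *Scg2* against controls was 0.44 ± 0.03 (SE) on day 6, with an edgeR adjusted p of 1.07e-05, which missed the call because it fell under the fold minimum. It was 0.98 ± 0.22 on day 8 (edgeR adjusted p = 0.0168) and 1.89 ± 0.24 on day 13 (edgeR adjusted p = 0.0011), a 3.71-fold difference. On day 4 it was 0.19 ± 0.06, under the fold minimum, with an adjusted p of 0.104 in edgeR and 0.0363 in DESeq2. With the *Xist* level as a covariate the edgeR adjusted p of day 4 was 0.118. Leaving out control C or control D ended the day 8 call, with adjusted p-values up to 0.0533.

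*Vgf* encodes a secreted precursor that nerve growth factor induces and that yields several peptides. Controls had 67.8, 74.6, 87.2 and 70.2 CPM. Day 8 mice had 144.0, 113.0, 140.2 and 75.6 CPM, so that 3 of 4 exceeded all controls. On day 13 the values were 324.8, 364.1, 157.1 and 115.3 CPM, with no overlap with the controls, and under rapamycin 75.2, 79.0, 62.3 and 49.6 CPM. The log2 fold change was 0.26 ± 0.07 on day 6 (edgeR adjusted p = 0.0328, under the fold minimum), 0.64 ± 0.17 on day 8 (0.0287) and 1.65 ± 0.32 on day 13 (0.0059). With the *Xist* level as a covariate the day 6 value was 0.28 (edgeR adjusted p = 0.0923). The day 8 call of *Vgf* was lost without control A, B or D and without day 8 mouse A or C, with adjusted p-values up to 0.09.

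*Npy*, the precursor of neuropeptide Y, is made in the normal hippocampus by interneurons, and granule cells are known to make it after seizures. Controls had 12.2, 10.8, 11.5 and 9.70 CPM, while day 4 mice lay between 9.21 and 10.7 CPM and day 6 mice between 6.80 and 10.6 CPM. On day 8 the group split into 2 mice far above the controls, A with 32.9 and C with 62.7 CPM, and 2 mice below them, B with 9.47 and D with 7.30 CPM. All 4 day 13 mice were above every control, at 81.7, 100.8, 26.0 and 25.3 CPM. With rapamycin the values were 8.54, 8.19, 10.7 and 10.9 CPM.

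For *Npy* the day 13 difference was 5.21-fold (log2 fold change 2.38 ± 0.43 SE, edgeR adjusted p = 0.00433). The day 8 log2 fold change of 1.33 ± 0.54 was not called (edgeR adjusted p = 0.131), and it fell to 0.57 without mouse C. Without mouse D it was 1.66 with an edgeR adjusted p of 0.0341.

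*Penk*, the precursor of the enkephalins, followed nearly the same mice. Its controls stood at 17.3, 12.9, 12.4 and 13.9 CPM and its day 6 mice between 12.6 and 15.0 CPM. Day 8 mice A and C had 36.9 and 84.7 CPM, whereas B and D had 10.8 and 11.2 CPM, below the controls. On day 13 the values were 65.6, 110.3, 29.3 and 47.2 CPM, all above the controls. The difference on day 13 was 4.39-fold (log2 fold change 2.13 ± 0.34 SE, edgeR adjusted p = 0.00251), and the day 8 log2 fold change of 1.33 ± 0.55 was not called (edgeR adjusted p = 0.135). For *Penk* that value fell to 0.46 without mouse C, and without mouse B it was 1.64 with an edgeR adjusted p of 0.0484.

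One *Penk* value stood apart before day 8. Day 4 mouse D had 32.7 CPM, against 11.1 to 12.1 CPM in the other day 4 mice. The same mouse had 5.62 CPM of *Adora2a* and 17.6 CPM of *Drd1*, and its summed level over 6 striatum markers was 193.3 CPM, against 163.4 to 176.5 CPM in the other day 4 mice and 166.4 to 175.1 CPM in controls. Their part in the *Penk* value was not tested. On day 13 the sum was 213.5, 190.5, 245.1 and 164.0 CPM in mice A to D. Of the 6 markers, 2 (*Drd1* and *Ppp1r1b*, both also expressed in hippocampus) were called higher, where 16.5% of all genes were called. The median log2 fold change of the 6 was 0.14. *Adora2a* stood between 0.477 and 1.32 CPM on that day, close to its controls. The part of these markers in the day 13 *Penk* values was not tested. *A830012C17Rik* overlaps *Penk* on the other strand, and the strand setting of the counting is not given in the sources used here.

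**Figure D2:**
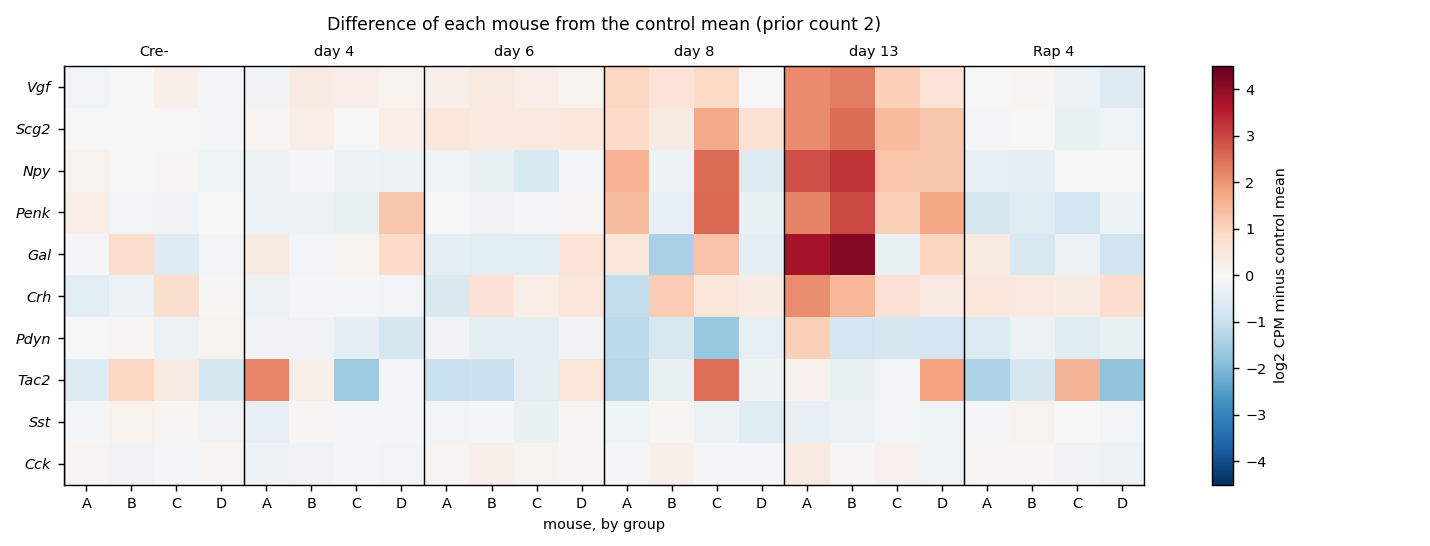
Difference of each mouse's log2 CPM (prior count 2) from the control mean, for the 10 genes (rows) in 24 mice (columns, by group), from blue (lower) to red (higher). Npy, Penk and Scg2 are red in day 8 mice A and C and in all day 13 mice, whereas Sst and Cck stay pale throughout.

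The shift therefore differed from mouse to mouse within days 8 and 13. On day 13 mouse A had 7 of the 10 genes at more than 2 times the control mean, mouse B had 6 and mice C and D had 4 each. On day 8 mouse C had 5, mouse A had 2, mouse B had 1 (*Crh*, at 0.899 CPM) and mouse D had none. Day 4 mice A and D and Rap 4 mouse C also had 1 each. The share of all genes over 2 times the control mean in each mouse was not counted. *Tac2*, described below, is among the genes counted in day 13 mouse D and day 8 mouse C. It is the 1 gene of day 4 mouse A and of Rap 4 mouse C. Day 13 mice A and B also had the most counts of their group, 69971957 and 126435936, against 38423852 and 41101425 in C and D, and they differed from C and D in sex, with *Ddx3y* at 79.3 and 78.9 CPM against 0.0568 and 0.0507 CPM. Sex and the size of the shift could not be told apart among 4 mice. With the *Xist* level as a covariate, the day 13 log2 fold change was 1.74 for *Npy*, 1.77 for *Penk*, 1.62 for *Scg2* and 1.27 for *Vgf*, all 4 still called (largest edgeR adjusted p, 0.00965, for *Vgf*).

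Transcripts of 8 immediate early genes, which neurons induce within minutes to hours of strong firing, did not follow the same order of mice. Their summed level was 181.9 to 237.9 CPM in controls and 140.9 to 257.9 CPM on day 8, when none of the 8 was called. Of the 8, 2 were called lower on day 4 (*Arc* and *Npas4*, with sums of 127.6 to 171.7 CPM below every control), 2 on day 6 (*Fosb* and *Npas4*) and 2 in Rap 4 mice against controls (*Arc* and *Npas4*). The shares of all genes called in these 3 comparisons were 0.68%, 1.32% and 1.41%. Day 8 mice A and C, the ones with high *Npy*, had 171.9 and 170.0 CPM. On day 13, 5 of the 8 were called higher, where 16.5% of all genes were called, and the sums were 801.2, 523.1, 1236 and 120.5 CPM. Mouse D, with the lowest sum of that group, had 25.3 CPM of *Npy* and 47.2 CPM of *Penk*, both above all controls.

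*Gal*, the precursor of galanin, and *Crh*, the precursor of corticotropin-releasing hormone, were scarce. *Gal* had 10 to 28 counts per control mouse, equal to 0.239, 0.467, 0.157 and 0.230 CPM. Day 13 mice A and B had 3.80 and 5.00 CPM, whereas C had 0.199 CPM, within the controls, and D had 0.533 CPM. The log2 fold change of 3.13 ± 0.86 SE (edgeR adjusted p = 0.0253) therefore rested mainly on A and B. Without mouse A the adjusted p was 0.0545, without mouse B it was 0.0652, it reached up to 0.077 without control A, C or D, and with the *Xist* covariate the log2 fold change fell to 1.69 (edgeR adjusted p = 0.146).

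*Crh* had 14 to 42 counts per control mouse, or 0.257, 0.317, 0.661 and 0.402 CPM. On day 13 it had 1.75, 1.16, 0.625 and 0.507 CPM, so that A and B exceeded all controls and C and D lay among them. Its log2 fold change of 1.30 ± 0.43 SE reached an edgeR adjusted p of 0.049. That call was lost without day 13 mouse A (0.133), without day 13 mouse B (0.0988), without control A, B or D, and with the *Xist* covariate (0.168).

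*Pdyn*, the precursor of the dynorphins, is a product of dentate granule cells. It went the other way on day 8. Controls had 10.3, 10.7, 8.48 and 11.2 CPM, and day 8 mice had 4.48, 6.19, 3.04 and 7.87 CPM, each below every control. The lowest value belonged to mouse C, which had the highest *Npy*, *Penk* and *Scg2* of its group. The log2 fold change was -0.92 ± 0.24 SE (edgeR adjusted p = 0.0271), and it was no longer called without control A, B or D or without day 8 mouse A, with adjusted p-values up to 0.0851. Before day 8 *Pdyn* was already below the control mean of 10.16 CPM in every mouse, though overlapping with the controls. Day 4 mice had 5.849 to 9.135 CPM (log2 fold change -0.37 ± 0.13; adjusted p 0.151 with edgeR, 0.0455 with DESeq2). Day 6 mice had 7.368 to 9.083 CPM (-0.31 ± 0.10; 0.0738 with edgeR, 0.0239 with DESeq2). With the *Xist* level as a covariate the edgeR adjusted p-values were 0.12 and 0.261.

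On day 13 *Pdyn* had 5.54, 5.99 and 5.53 CPM in mice B, C and D, below every control, but 21.1 CPM in mouse A, above every control. The group as a whole was not called (log2 fold change -0.11 ± 0.42, edgeR adjusted p = 0.871). Without mouse A it was -0.85, with an edgeR adjusted p of 0.00392. The summed level of 8 dentate granule cell markers was 570.2 to 618.7 CPM in controls, 431.3 to 633.8 CPM on day 8 and 274.0 to 512.5 CPM on day 13. On day 13, 3 of the 8 (*Calb1*, *Plk5* and *Stxbp6*) were called lower, where 16.5% of all genes were called. In day 13 mouse A this sum was 299.4 CPM. The part of these markers in the *Pdyn* values was not tested.

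*Tac2*, the precursor of neurokinin B, is a product of the medial habenula among other regions. Its highest values were single mice in 4 groups, with 5.00 CPM in day 4 mouse A, 6.00 CPM in day 8 mouse C, 3.75 CPM in day 13 mouse D and 3.10 CPM in Rap 4 mouse C. The other 20 mice lay between 0.284 and 2.07 CPM. Those 4 mice were the ones with habenula transcripts, and over the 24 mice *Tac2* had a Pearson r of 0.986 and a Spearman rho of 0.905 with the sum of *Chrnb4* and *Pou4f1*, given as a description. Without the 2 mice farthest from the median sum, r was 0.964.

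The 8 habenula markers summed to 176.8, 203.5, 141.8 and 122.3 CPM in these mice, against 73.2 to 97.0 CPM in controls. The sum alone did not separate them, since it was 137.6 and 108.8 CPM in day 13 mice A and B, whose *Chrnb4* was at 0.0923 and 0.0256 CPM. *Pou4f1* was at 0 or up to 1.64 CPM in the other 20 mice. Of the 7 markers tested on day 13, *Gpr151* alone was called higher, where 16.5% of all genes were called. *Tac2* was called in no comparison in the main test. Its log2 fold changes against controls had SEs of 0.41 to 0.72, so only large differences could have been seen. Without those 4 mice the day 8 log2 fold change of *Tac2* turned from 0.75 to -0.75 and the day 13 value from 0.46 to -0.28, neither called, whereas on day 13 the same 6 genes as before were called.

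**Figure D3:**
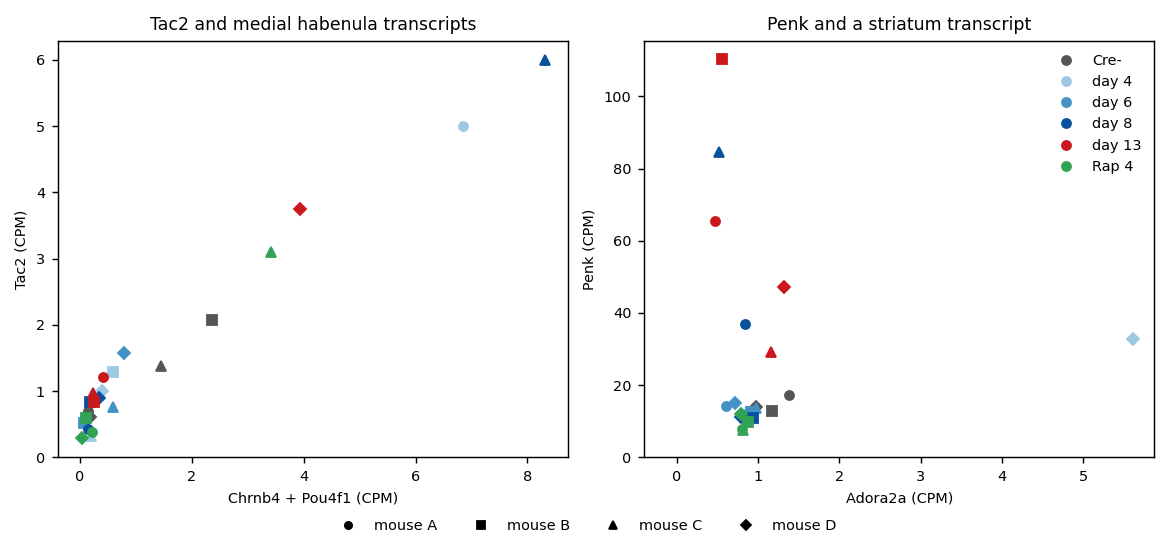
Left, Tac2 against the sum of Chrnb4 and Pou4f1, and right, Penk against Adora2a, all in CPM, 1 symbol per mouse with the color giving the group. Tac2 lies near a line through all groups, with the 4 mice over 3 CPM at the right. The high Penk values of days 8 and 13 lie at low Adora2a, and only day 4 mouse D lies far to the right. Striatum markers other than Adora2a are not drawn, and their part in the Penk values was not tested.

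*Sst*, the precursor of somatostatin, and *Cck*, the precursor of cholecystokinin, mark 2 classes of interneuron, and *Cck* is also made by pyramidal cells. *Sst* had 24.9, 29.2, 28.0 and 23.8 CPM in controls and 20.6, 21.9, 24.4 and 23.3 CPM on day 13. Its largest log2 fold change against controls was -0.25 ± 0.10 SE on day 13 (edgeR adjusted p = 0.0765), with 3 of 4 mice below every control. *Cck* had 114.2, 94.8, 103.1 and 111.9 CPM in controls and 138.4, 110.2, 119.6 and 93.5 CPM on day 13, with a log2 fold change of 0.10 ± 0.12 (edgeR adjusted p = 0.536). Both genes overlapped with their controls at every time point. The summed level of 9 interneuron markers, from which both genes were left out, was 575.7 to 646.5 CPM in controls and 532.7 to 646.8 CPM on day 13, with the groups overlapping. Of the 9, 1 (*Erbb4*) was called lower on day 13, where 16.5% of all genes were called.

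In counts, none of the 10 genes was called on day 4, where 0.68% of 25308 genes were, and none on day 6, where 1.32% of 25057 were. At an unadjusted p under 0.05, 4 genes passed on day 4 and 5 on day 6, where 18.4% and 24.2% of all genes tested did so, and DESeq2 also called none on either day. On day 8, 3 were called (*Scg2* and *Vgf* higher, *Pdyn* lower), against 3.99% of 25085 genes. On day 13, 6 were called, all higher, against 16.5% of 24920 genes. Over the 10 genes the median log2 fold change against controls was 0.04 for day 4, -0.08 for day 6, 0.50 for day 8 and 1.48 for day 13. The median over all genes tested lay between -0.04 (day 13) and -0.005 (day 4).

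**Figure D4:**
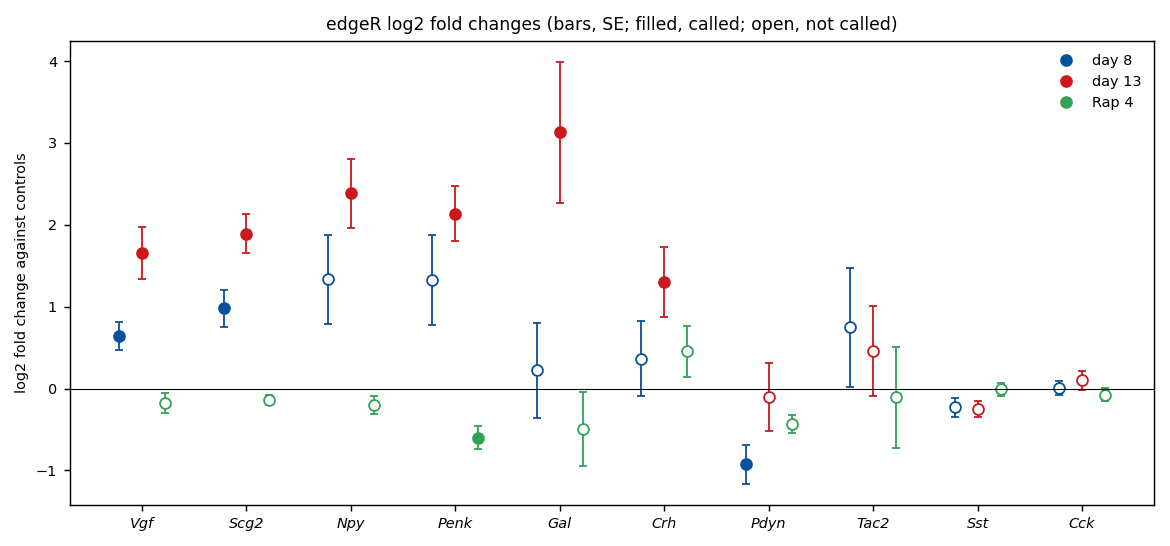
edgeR log2 fold change against controls (vertical axis) with its SE for the 10 genes on day 8, on day 13 and in Rap 4 mice, with filled symbols for called genes. The 6 filled day 13 symbols lie between 1.30 and 3.13, and the Rap 4 symbols lie between -0.60 and 0.46.

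Between day 8 and day 13 edgeR called none of the 24747 genes tested (0%), with 3479 at an unadjusted p under 0.05, whereas DESeq2 called 243 genes but none of the 10. The log2 differences of day 13 over day 8 were 1.01 ± 0.35 for *Vgf*, 0.91 ± 0.33 for *Scg2*, 1.04 ± 0.69 for *Npy* and 0.80 ± 0.64 for *Penk*, and for all 10 genes the mice of the 2 days overlapped. When all 24 mice shared 1 estimate of the spread, *Gal*, *Scg2* and *Vgf* were called higher on day 13, where 4.95% of 27110 genes were called.

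Whether early rapamycin kept these transcripts near control level was asked by setting the Rap 4 mice against both groups. Against untreated day 13 mice, 5 of the 10 genes were lower and none higher, where 21.1% of 24274 genes were called. *Penk* fell by 2.75 on the log2 scale (SE 0.35, edgeR adjusted p = 0.000751), *Npy* fell by 2.59 (0.43, 0.00231), *Scg2* fell by 2.05 (0.24, 0.000608) and *Vgf* fell by 1.84 (0.33, 0.0033). For these 4 genes every Rap 4 mouse was below every day 13 mouse. *Sst* did not overlap either, with the Rap 4 mice above, but was not called (log2 fold change 0.23 ± 0.10, edgeR adjusted p = 0.0926). The share of all genes whose groups did not overlap was not counted in any comparison. At an unadjusted edgeR p under 0.05, 43.2% of all genes tested passed here. *Gal* fell by 3.64 (0.90, edgeR adjusted p = 0.0138), though its groups overlapped through day 13 mouse C, and the call was lost without Rap 4 mouse D (adjusted p = 0.0504). *Crh*, which was called higher on day 13, was not called here (log2 fold change -0.86 ± 0.37, edgeR adjusted p = 0.105).

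Against controls, 1 of the 10 genes was called in Rap 4 mice, where 1.41% of 25006 genes were. *Penk* had 7.91, 9.64, 7.66 and 11.9 CPM, each below every control, with a log2 fold change of -0.60 ± 0.14 SE (edgeR adjusted p = 0.035). Its call was lost under 6 of the 8 leave-one-out fits, with adjusted p-values up to 0.0924. *Pdyn*, at 6.63, 8.31, 6.87 and 8.08 CPM, was also below every control, and its log2 fold change of -0.44 ± 0.11 (edgeR adjusted p = 0.0472) fell under the fold minimum. The other 8 genes had log2 fold changes between -0.49 for *Gal* and 0.46 for *Crh*. Those of *Npy* (-0.20 ± 0.11), *Vgf* (-0.17 ± 0.12) and *Scg2* (-0.14 ± 0.06) were small beside their day 13 values. The comparisons with controls share the same 4 control mice, and both rapamycin comparisons share the 4 treated mice.

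Among the other granins, *Chga* (chromogranin A) and *Chgb* (chromogranin B) rose on day 13, and both help to form dense-core vesicles. *Chga* had 59.0, 58.8, 61.7 and 64.0 CPM in controls, 130.4, 76.7, 132.4 and 78.4 CPM on day 8 and 302.3, 235.1, 115.0 and 116.4 CPM on day 13. It was called higher on day 8 (log2 fold change 0.76 ± 0.17 SE, edgeR adjusted p = 0.0133) and on day 13 (1.64 ± 0.29, 0.00387), with no overlap with the controls on either day. *Chgb* lay between 397.5 and 484.4 CPM in controls and between 625.3 and 1021 CPM on day 13 (log2 fold change 0.83 ± 0.15, edgeR adjusted p = 0.00397). Of the 3 other granins, 2 were called higher on day 13 and the same 2 were lower in Rap 4 than in day 13 mice. The shares of all genes called in these comparisons were 16.5% and 21.1%. *Scg3* was not called in either comparison.

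Among 11 genes for the processing and packaging of peptides, 2 were called higher and none lower on day 13, a share near the 16.5% of all genes, with a median log2 fold change of 0.18. They were *Pcsk5*, a proprotein convertase (1.32 ± 0.42 SE, edgeR adjusted p = 0.0448), and *Crhbp*, which encodes the binding protein of corticotropin-releasing hormone (0.75 ± 0.15, 0.00677). *Pcsk5* was uneven on day 13, at 81.5, 145.4, 28.8 and 37.2 CPM, against 25.8 to 32.03 CPM in controls. *Crhbp* was above every control in all 4 mice, at 17.3, 22.8, 14.1 and 14.3 CPM against 8.89 to 10.6 CPM. On day 6, 1 of the 11 was called higher, where 1.32% of all genes were called. It was *Pcsk1n*, named here after its values were seen (log2 fold change 0.775 ± 0.18 SE, edgeR adjusted p = 0.0161). On day 13 *Pcsk1n* was not called (0.12 ± 0.29, edgeR adjusted p = 0.796).

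Of 23 receptors of these peptides, 19 could be tested on day 13, with 1 called higher and 3 lower, against 16.5% of all genes called in either direction, so the share of receptors called lay near that of all genes. *Sstr2*, a somatostatin receptor, had 3.85, 4.97, 5.54 and 4.52 CPM in controls and 22.6, 21.1, 14.9 and 7.69 CPM on day 13, a 3.46-fold difference (log2 fold change 1.79 ± 0.29 SE, edgeR adjusted p = 0.00291). *Npy2r*, a neuropeptide Y receptor known on presynaptic terminals, had 66.7, 56.1, 52.1 and 55.8 CPM in controls and was below all of them on day 8, at 39.2, 44.2, 32.04 and 46.4 CPM, and on day 13, at 13.9, 23.9, 33.2 and 34.0 CPM. Its log2 fold change was -0.52 ± 0.11 on day 8 (edgeR adjusted p = 0.0132) and -1.16 ± 0.24 on day 13 (0.00878). *Npy5r* (-0.71 ± 0.14, edgeR adjusted p = 0.00689) and the mu opioid receptor *Oprm1* (-0.66 ± 0.16, 0.0147) were also lower on day 13.

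In Rap 4 mice *Sstr2* stood at 3.64 to 5.74 CPM and *Npy2r* at 44.1 to 57.4 CPM. Both were called against day 13, *Sstr2* with a log2 fold change of -1.87 and *Npy2r* with one of 0.99, and neither against controls. The receptor called against controls in Rap 4 mice was *Sstr3*, another somatostatin receptor that is named here after its values were seen, at 22.2 to 25.4 CPM against 29.5 to 40.4 CPM (log2 fold change -0.51 ± 0.09 SE, edgeR adjusted p = 0.00659). Untreated *Tsc1-Cre+* mice of days 4, 6 and 8 were also below every control for *Sstr3*. Their log2 fold changes were -0.33, -0.37 and -0.39 (edgeR adjusted p = 0.048, 0.0117 and 0.0243), under the fold minimum. On day 13 the value was -0.12 (edgeR adjusted p = 0.771). The summed level of the 23 receptors was 193.6 to 222.6 CPM on day 13 and 235.3 to 254.8 CPM in controls, with *Npy2r* the most abundant.

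**Figure D5:**
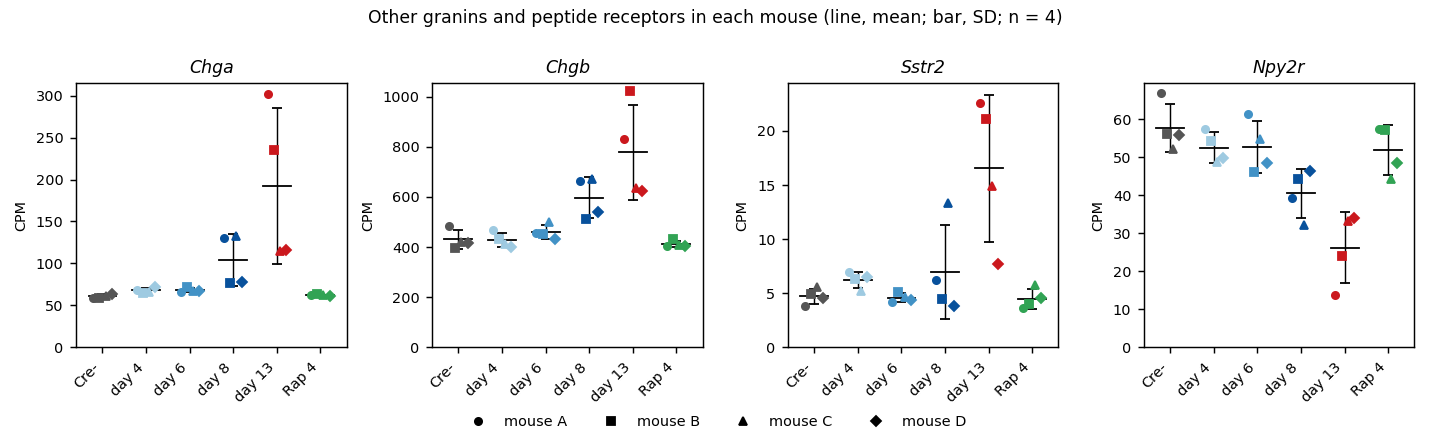
CPM of Chga, Chgb, Sstr2 and Npy2r (vertical axes from 0) by group, 1 symbol per mouse, with the mean as a line and the SD as a bar (n = 4). On day 13 all mice lie above the controls for Chga, Chgb and Sstr2 and below them for Npy2r, and Rap 4 mice lie among or near the controls.

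Of 16 other neuropeptide precursors, 13 could be tested on day 13, with 2 called higher and 1 lower, against 16.5% of all genes. *Trh*, the precursor of thyrotropin-releasing hormone, had 0.134 to 0.312 CPM in controls and 7.17, 2.68, 0.256 and 0.254 CPM on day 13, so that, as with *Gal*, mice A and B alone stood out (log2 fold change 3.62 ± 1.01 SE, edgeR adjusted p = 0.0266). *Adm*, the precursor of adrenomedullin, had 0.514 to 0.771 CPM in controls and 4.97, 4.00, 2.07 and 1.24 CPM on day 13, all above the controls (2.36 ± 0.40, edgeR adjusted p = 0.00351). *Grp*, the precursor of gastrin-releasing peptide, was lower in all 4 mice, at 1.97, 1.89, 2.27 and 3.32 CPM against 4.02 to 4.87 CPM (-0.98 ± 0.20, edgeR adjusted p = 0.00732).

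The genes whose log2 CPM was most like each of the 6 genes called on day 13 were sought over the 24 mice among 18251 genes of a mean CPM of at least 1. They were *Cap1* (r = 0.98) and *Blnk* (r = 0.978) for *Scg2*, *Cltb* (r = 0.976) and *Gemin5* (r = 0.971) for *Vgf*, *Adgrf4* (r = 0.966) and *Glce* (r = 0.964) for *Npy*, and *Gfap* (r = 0.962) and *Acvr1c* (r = 0.953) for *Penk*. *Gal* was most like *Il13ra1* (r = 0.935) and *Hspb8* (r = 0.927). For *Crh* the highest values, with *Cdh6* (r = 0.768) and *Pgm2* (r = 0.755), were lower. Of these 12 genes, *Gemin5*, *Hspb8*, *Cdh6* and *Pgm2* were not called on day 13. These values describe the same 24 libraries. Over the 16 mice of the groups other than day 8 and day 13, r was 0.839 to 0.871 for the pairs of *Scg2* and *Vgf*, 0.771 and 0.843 for those of *Penk*, 0.686 and 0.767 for those of *Gal*, 0.563 and 0.509 for those of *Crh*, and 0.591 and 0.115 for those of *Npy*.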

How the data were processed

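The authors prepared stranded total RNA libraries after ribosomal RNA depletion, trimmed the paired reads with cutadapt 1.16.5, aligned them with STAR 2.7.2b to GRCm38 (mm10) and counted them per GENCODE gene with featureCounts 1.6.4. They deposited raw counts, 1 library per mouse. The strand setting of the counting is not given in the sources used here. Names and coordinates came from GENCODE M21, which held 55144 of the 55385 identifiers.

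Groups and letters A to D followed the sample titles. The 8 mice of a comparison were fitted by edgeR 4.0.16 (R 4.3.3; quasi-likelihood test), with filterByExpr, TMM normalization and Benjamini-Hochberg adjustment. Adjusted p-values without a named tool come from this fit. CPM used TMM factors of all 24 mice. The edgeR F test covered the 6 groups. DESeq2 1.42.0, other scalings and filters, covariates and leaving out each mouse were alternatives. On simulated counts with 200 changed genes, the edgeR step recovered 97.5% for day 8 and 98.5% for day 13. These shares hold for the spread and the levels that were simulated. They do not give the chance of calling a real change in the genes described here, whose mice could spread widely. *Npy* on day 8, with a log2 fold change of 1.33 ± 0.54 (SE), was not called. Letters did not pair mice, since no pair of groups had every same-letter correlation over 0.1.

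The controls and the mice of day 8 had animal numbers of the same 2 series, whereas the other groups had numbers of other series. Number series and group therefore cannot be told apart in the comparisons of those groups with controls. No label says what the series stand for. With the series as a block, *Scg2*, *Vgf* and *Pdyn* were all still called on day 8, with adjusted p-values of 0.0212, 0.042 and 0.0396.

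The 10 genes and the gene lists were chosen with earlier results of these data known. Named genes were all 10, up to 4 called genes of each peptide-system list with the largest day 13 change, and the 2 most like genes of each gene called on day 13. *Sstr3* and *Pcsk1n* were named after their values were seen. Other genes are named as the check of the deletion or as markers. *Gal*, *Crh* and *Tac2* rest on few counts. Of the interneuron and striatum lists, 1 marker each is not reported here.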

Additional observations from a re-analysis of the deposited data

Results flagged for a closer look

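In 60 sets of 4 mice (10 genes in 6 groups), 8 held a mouse whose gap to its nearest neighbor took more of the range of the set than the critical value of Dixon's ratio, where chance alone gives about 1 in 20. *Tac2* gave 3 of them, day 8 mouse C at 6.004 CPM, day 13 mouse D at 3.754 CPM and Rap 4 mouse C at 3.101 CPM, which are among the mice with medial habenula transcripts. *Penk* in day 4 mouse D stood at 32.73 CPM, in the mouse with the highest striatum transcripts of its group, and *Pdyn* in day 13 mouse A stood at 21.09 CPM against 5.53 to 5.99 CPM in the other 3. The remaining ones were *Npy* in day 4 mouse B (10.69 CPM), *Cck* in day 8 mouse B (124.2 CPM) and *Gal* in day 6 mouse D (0.4125 CPM, a set with 9 to 22 counts per mouse).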

How the results depend on the processing

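Counts of called genes below are out of the 10 described, with the share of all genes called in brackets. Without a fold minimum the count rose from 0 to 2 on day 6 (10.1%) and from 1 to 2 for Rap 4 against controls (3.57%). With an absolute log2 fold change over 1 it fell to 0 on day 8 (1.1%) and to 0 for Rap 4 against controls (0.332%). With all 24 mice in 1 fit it was 1 on day 8 (3.68%), 0 for Rap 4 against controls (0.598%) and 3 for day 13 against day 8 (4.95%). Without the 4 mice with medial habenula transcripts, an alternative chosen after seeing the data, it was 0 for Rap 4 against controls (1.1%), 2 on day 8 (3.13%) and 6 on day 13 (20.7%). Leaving out 1 mouse at a time gave 0 to 4 on day 8 (2.3% to 5.82%), 4 to 6 on day 13 (11.1% to 20.7%), 0 to 2 for Rap 4 against controls (0.928% to 1.36%) and 4 to 6 for Rap 4 against day 13 (14.7% to 24.1%). With a replicate block by letter, which the check of deviations did not support as a pairing, 5 genes were called on day 13 (14.2%), *Crh* being lost (adjusted p = 0.115). The block and DESeq2 moved no other count by more than 1.5 times. No called log2 fold change of the 10 genes changed sign under any alternative. Depth limits *Gal*, *Crh* and *Tac2*, *Gal* having 4 to 36 counts per mouse outside day 13.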
